A study of Mus musculus with 33 samples.

Results

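Fatty acids and cholesterol are both built from acetyl-CoA, and their transcripts were followed here through the hair cycle of mouse skin as a set of 34 genes. The set held 14 genes of fatty acid synthesis and 20 of sterol synthesis, each taken by its symbol. The lists were drawn up with earlier results of these data known. On the array a gene was represented by the probe set that carried its symbol alone and had the highest mean log2 signal over all arrays. All 34 were among the 12859 genes kept of the 18193 genes with such a probe set. None of the 1122 signals of these genes lay under the floor of 34.6 that was set for low signals, the lowest being 82.8.

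The samples were whole dorsal skin from the upper-mid back of wild-type C57BL/6 mice, 33 in all, with 1 mouse per array, so replicates were separate animals. In the natural second hair cycle (23 arrays, 13 from males and 10 from females) the study placed P23 and P25 (postnatal days, 2 mice each) in early anagen, P27 (3) in mid anagen, P29 (3) and P34 (1) in late anagen, P37 and P39 (3 each) in early catagen, P41 (3) in mid catagen and P44 (3) in telogen. Both P23 mice were male. The single P34 array is given as a value and joined a tested phase only in an alternative, where it was added to late anagen. In the other 10 mice, all female with P50 as the lowest age in their labels, growth was started by pulling the hair from resting skin with a mixture of wax and rosin, and skin was taken in pairs at D3, D5, D8, D12 and D17 (days after depilation). The study reads D3 as early, D5 as mid and the next 2 days as late anagen, with early catagen at D17. No genetic change or drug was part of any group. Within the natural cycle phase and age go together and cannot be told apart. Cycle and age differ together between the natural and the depilated mice and cannot be told apart either. Sex differs in part, since the natural mice were of both sexes, and it was not adjusted for between the cycles.

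Anagen is the growth of the hair follicle, catagen its regression and telogen its rest. Cytosolic acetyl-CoA comes from citrate through Acly or from acetate through Acss2. Acetyl-CoA carboxylases (Acaca in lipogenic tissue, Acacb at the mitochondrion) make malonyl-CoA, fatty acid synthase (Fasn) extends it to palmitate with NADPH from malic enzyme (Me1) among others, and elongases (Elovl5, Elovl6) and desaturases (Scd1, Scd2, Fads1, Fads2) modify the product. On the sterol side Hmgcs1 opens the mevalonate pathway, Mvk, Pmvk, Mvd, Idi1, Fdps and Fdft1 lead to squalene, Sqle and Lss close the ring, and Cyp51, Tm7sf2, Msmo1, Nsdhl, Hsd17b7, Ebp, Sc5d and Dhcr7 turn lanosterol into cholesterol. SREBP-1 (Srebf1) mainly drives the fatty acid genes and SREBP-2 (Srebf2) the sterol genes, and Insig1 holds their escort protein in the endoplasmic reticulum when sterols are plentiful. Thrsp is a nuclear protein of lipogenic cells and Stard4 a carrier of cholesterol. Skin uses these products in sebum, in the lipids of the epidermal barrier and in the fat layer under the dermis.

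Promoter sequences are shown for 6 members whose levels carry the results that follow, namely Hmgcs1, Idi1, Lss and Insig1 of the sterol genes and Fads2 and Acacb of the fatty acid genes. Each is the 180 bases before the transcription start from RefSeq, build GRCm38.p6, written 5′ to 3′ along the gene, and capitals mark complete matches on either strand to a sterol regulatory element core (TCACNCCAC), a CCAAT box (CCAAT) or a GC box (GGGCGG), the letters to which SREBP, NF-Y and Sp1 are known to bind.
Hmgcs1: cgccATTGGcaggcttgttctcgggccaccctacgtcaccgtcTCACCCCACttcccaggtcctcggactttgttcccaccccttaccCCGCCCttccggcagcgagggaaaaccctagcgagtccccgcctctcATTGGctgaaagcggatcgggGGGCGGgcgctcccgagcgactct
Idi1: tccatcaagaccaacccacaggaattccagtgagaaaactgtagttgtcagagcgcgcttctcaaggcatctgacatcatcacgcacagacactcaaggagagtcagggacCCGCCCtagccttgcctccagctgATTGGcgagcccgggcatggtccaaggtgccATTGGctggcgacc
Lss: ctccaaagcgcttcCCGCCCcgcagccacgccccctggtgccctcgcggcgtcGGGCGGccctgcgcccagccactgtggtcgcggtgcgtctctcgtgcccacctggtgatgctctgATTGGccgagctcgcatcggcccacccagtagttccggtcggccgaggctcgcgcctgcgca
Insig1: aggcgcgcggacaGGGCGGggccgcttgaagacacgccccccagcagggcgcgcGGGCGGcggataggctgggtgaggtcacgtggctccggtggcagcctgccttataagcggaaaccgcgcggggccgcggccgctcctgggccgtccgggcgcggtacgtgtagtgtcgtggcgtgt
Fads2: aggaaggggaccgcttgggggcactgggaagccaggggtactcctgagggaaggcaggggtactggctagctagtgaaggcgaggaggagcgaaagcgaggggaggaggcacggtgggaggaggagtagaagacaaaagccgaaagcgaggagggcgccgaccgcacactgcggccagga
Acacb: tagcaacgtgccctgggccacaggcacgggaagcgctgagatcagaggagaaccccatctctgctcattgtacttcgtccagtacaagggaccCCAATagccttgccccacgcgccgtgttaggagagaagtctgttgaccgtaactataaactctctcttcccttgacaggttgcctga
Hmgcs1, at chr13:119690171-119690350 on the + strand, had the single sterol regulatory element core among these 6 sequences, with its first base 137 bases before the start. Idi1 (chr13:8885426-8885605, +) had 2 CCAAT boxes on the opposite strand, 45 and 14 bases before the start, and Lss (chr10:76531425-76531604, +) had 1, 62 bases before. In Insig1 (chr5:28071232-28071411, +) there were 2 GC boxes, and in Acacb (chr5:114165338-114165517, +) a CCAAT box 87 bases before the start. The shown stretch of Fads2 (chr19:10101504-10101683, − strand) held none of these letters. In the whole window of 250 bases before and 50 after the start, RefSeq entries existed for 27 of the 34 genes, and 16 of 16 sterol genes with an entry held a CCAAT box, against 8 of 11 fatty acid genes and 41.1% of 27025 genes. A GC box was found in 15 of 16 sterol genes, 5 of 11 fatty acid genes and 38.2% of all genes. The complete sterol regulatory element core occurred in 1 of 16 sterol genes, in 0 of 11 fatty acid genes and in 1.44% of all genes. These are matches of letters in a window and not measured binding.

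The deposited signals share a common scale, and trimmed means of the arrays lay between 496.8 and 498.4 and medians between 111.2 and 142.5. Signals of different probe sets are not on a common scale, and each gene is compared only with itself. Between mice of the same day the median SD was 0.27 (log2) for the fatty acid genes, 0.25 for the sterol genes and 0.23 for all genes. The SD was highest for Thrsp (0.73), Fasn (0.45) and Acacb (0.45) and lowest for Hmgcs1 (0.12) and Nsdhl (0.12). P39 replicate 2 stood apart in markers of cornified epidermis and sebaceous gland, and the D3 pair differed widely in fatty acid genes. For the comparisons that use these arrays, counts of calls are also given without them. The skin was a mixture of cell types, so fewer cells of a type and less RNA per cell cannot be told apart in any value.

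Across the 6 phases of the natural cycle all 14 fatty acid genes and 17 of the 20 sterol genes changed (F test of limma over all kept probe sets, adjusted p under 0.05), in a background where 72.6% of the 26988 kept probe sets did. The exceptions were Ebp (adjusted p = 0.237), Tm7sf2 (0.42) and Hsd17b7 (0.662). Among fatty acid genes the smallest adjusted p belonged to Fads2 (2.39e-07), Scd2 (2.73e-07) and Acss2 (1.2e-05), and among sterol genes to Idi1 (1.4e-06), Nsdhl (1.85e-06) and Sqle (2.77e-06). Without P39 replicate 2 the count was 30. Of the fatty acid genes 9 of 14 (64.3%) had their highest mean in early anagen, the highest phase of 22.3% of all genes, and 4 (28.6%, against 31.8% of all genes) in telogen, namely Acacb, Elovl5, Scd1 and Thrsp, while Fads2 was highest in mid anagen. Of the sterol genes 9 of 20 (45%) were highest in late anagen, against 13.9% of all genes, and 7 (35%) in early anagen. The highest phase is only the largest of 6 means and was not tested. Late and early anagen lay within their spread in Mvd (488 ± 79.4 and 484 ± 72.5, SD), Idi1 (3256 ± 343 and 3179 ± 338) and Hmgcs1 (10980 ± 712 and 11030 ± 737). Hsd17b7 counts as highest in late anagen although it did not pass the F test. Mid catagen was the most frequent lowest phase in both lists, with 16 of 20 sterol genes (80%) and 5 of 14 fatty acid genes (35.7%), against 16.9% of all genes. For the fatty acid genes early catagen was close behind, with 4 of 14 (28.6%, against 14.1% of all genes). No test of a difference between the lists was made. The span from the lowest to the highest phase mean was widest for Fads2 (6.41-fold), Thrsp (4.31-fold) and Acacb (4.11-fold), and among sterol genes for Idi1 (3.09-fold), Fdps (3-fold) and Sqle (2.51-fold).

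**Figure D1:**
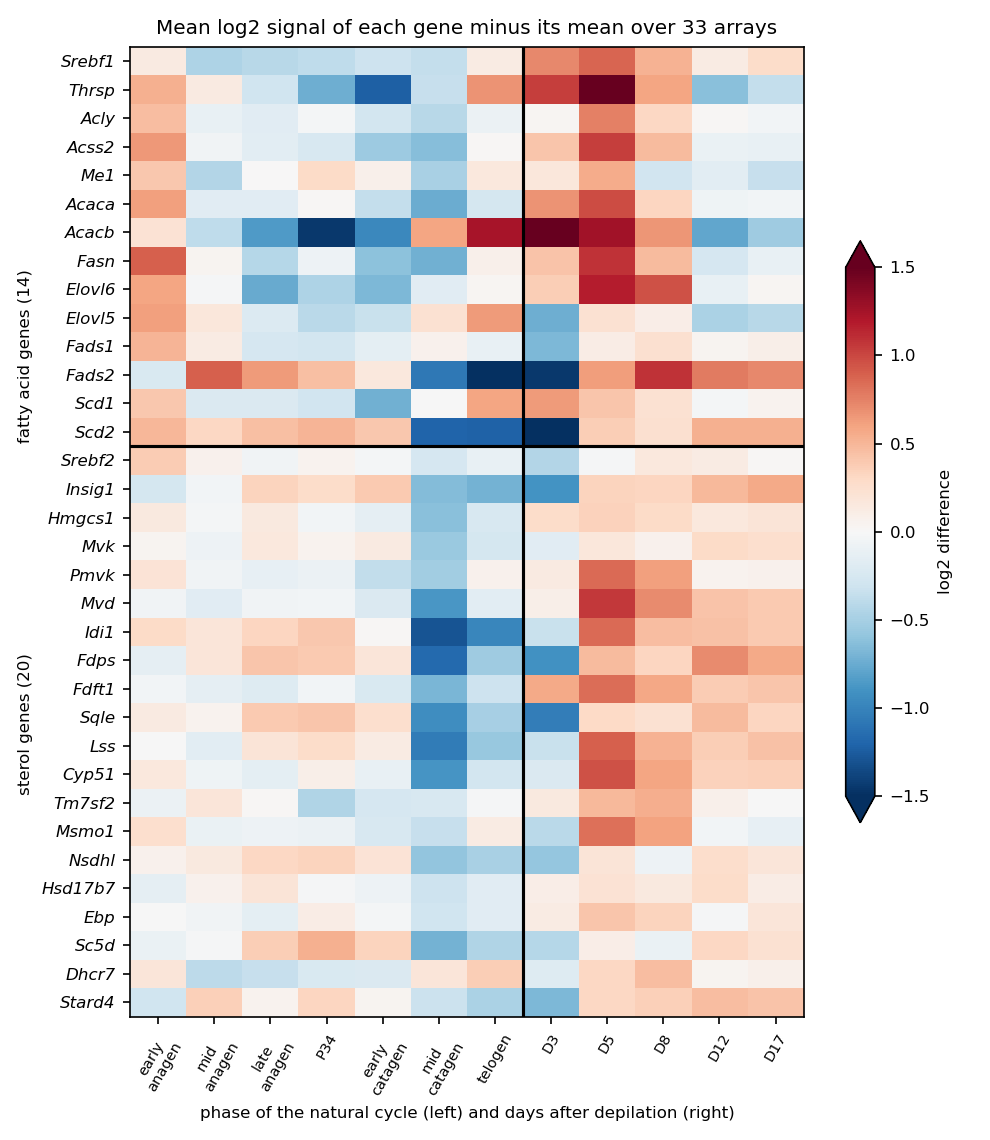
Heat map of the 34 genes (rows, fatty acid genes above the line) over the phases of the natural cycle and the days after depilation (columns). Colour is the mean log2 signal of the group minus the mean of the gene over all 33 arrays, red for higher and blue for lower, with the scale ending at 1.5 on either side. Most sterol rows are blue in the mid catagen column, and the rows of Scd2 and Fads2 are blue in mid catagen, telogen and D3 alike.

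The regulators were read first. Srebf1 averaged 2084 ± 210 (SD, n = 4) in early anagen, 1385 ± 263 (n = 3) in mid anagen, 1433 ± 253 (n = 3) in late anagen, 1528 ± 109 (n = 6) in early catagen, 1488 ± 187 (n = 3) in mid catagen and 2082 ± 309 (n = 3) in telogen. It was thus high in telogen and early anagen and low between, and the phases from mid anagen to mid catagen lay within their spread of each other. Srebf2 averaged 1371 ± 255 in early anagen, 1083 ± 27.8 in mid anagen, 1015 ± 194 in late anagen, 1019 ± 87.3 in early catagen, 875 ± 85.1 in mid catagen and 970 ± 195 in telogen, with the same numbers of mice, and of its neighbouring phases none passed a test. Insig1 had another order, with 912 ± 42.5 in early anagen, 1087 ± 260 in mid anagen, 1384 ± 202 in late anagen, 1435 ± 87.2 in early catagen, 701 ± 96 in mid catagen and 691 ± 208 in telogen.

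Acss2 averaged 1547 ± 441 in early anagen and 616 ± 33.3 in mid catagen, the ends of its range. Hmgcs1 went from 11030 ± 737 in early anagen to 6420 ± 210 in mid catagen, and Sc5d from 2189 ± 74.2 in late anagen to 1054 ± 238. Nsdhl, a demethylating dehydrogenase, went from 1691 ± 160 in late anagen to 902 ± 27.2, and in telogen it stood at 971 ± 75.1, within its spread of mid catagen. In the members not yet named by value the span between phases was small for Ebp (1.23-fold), Hsd17b7 (1.33-fold) and Tm7sf2 (1.34-fold), and Stard4 (1.76-fold) and Dhcr7 (1.71-fold) had their lowest phase in telogen and mid anagen.

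The step from early to mid catagen (P41 against P37 and P39), in which follicles regress, held the largest number of sterol changes. Of the 20 sterol genes 11 fell and 0 rose, where 17.9% of all probe sets fell and 17.4% rose, and the median difference of the list was −0.58 on the log2 scale against 0.04 for all genes. Fdps, which makes farnesyl diphosphate, had signals of 1883, 1634 and 1664 at P41, and in the 6 early catagen arrays a lowest of 3420, a median of 4554 and a highest of 5626. All 3 mid catagen mice lay below every early catagen mouse, a log2 difference of −1.35 ± 0.16 (SE, adjusted p = 0.000585).

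Idi1, the isomerase that makes the pathway's reactive isoprene unit, stood at 1096, 1053 and 1009 against 1973, 2708 and 3327 (lowest, median, highest), a difference of −1.32 ± 0.19 (adjusted p = 0.00127). Sqle, squalene epoxidase, stood at 1452, 1378 and 1273 against 2706, 3098 and 3643 (−1.19 ± 0.11, adjusted p = 0.000188). Insig1, itself a target of SREBP, stood at 775, 593 and 735 against 1328, 1436 and 1584 (−1.04 ± 0.11, adjusted p = 0.000319). In none of these genes did the groups overlap. Over both lists 12 sterol and 5 fatty acid genes had groups that did not overlap, where 33.7% of all probe sets did not.

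The other sterol genes that fell came from steps before and after squalene. Lss, the cyclase that closes the sterol ring (−1.17 ± 0.23, adjusted p = 0.00451), and Sc5d, a late desaturase (−1.04 ± 0.15, adjusted p = 0.00113), fell by about as much as Insig1. Nsdhl (−0.80), Cyp51 (−0.78), Mvk (−0.69), Hmgcs1 (−0.49) and Fdft1 (−0.46) fell less, with adjusted p between 0.000614 and 0.0128, and their groups did not overlap either. Hmgcs1, whose promoter is the first of those shown, read 6388, 6644 and 6228 at P41 and at least 7658 in early catagen. The 9 remaining genes did not pass. Mvd differed by −0.66 (adjusted p = 0.0572), Ebp by −0.28 (0.0582, groups apart), Stard4 by −0.36 (0.117), Srebf2 by −0.22 (0.143), Hsd17b7 by −0.24 (0.456), Pmvk by −0.15 (0.578), Msmo1 by −0.10 (0.571) and Tm7sf2 by 0.01 (0.947). Dhcr7, which catalyses the final reduction to cholesterol, had the opposite sign at 0.39 ± 0.16 (0.0881).

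**Figure D2:**
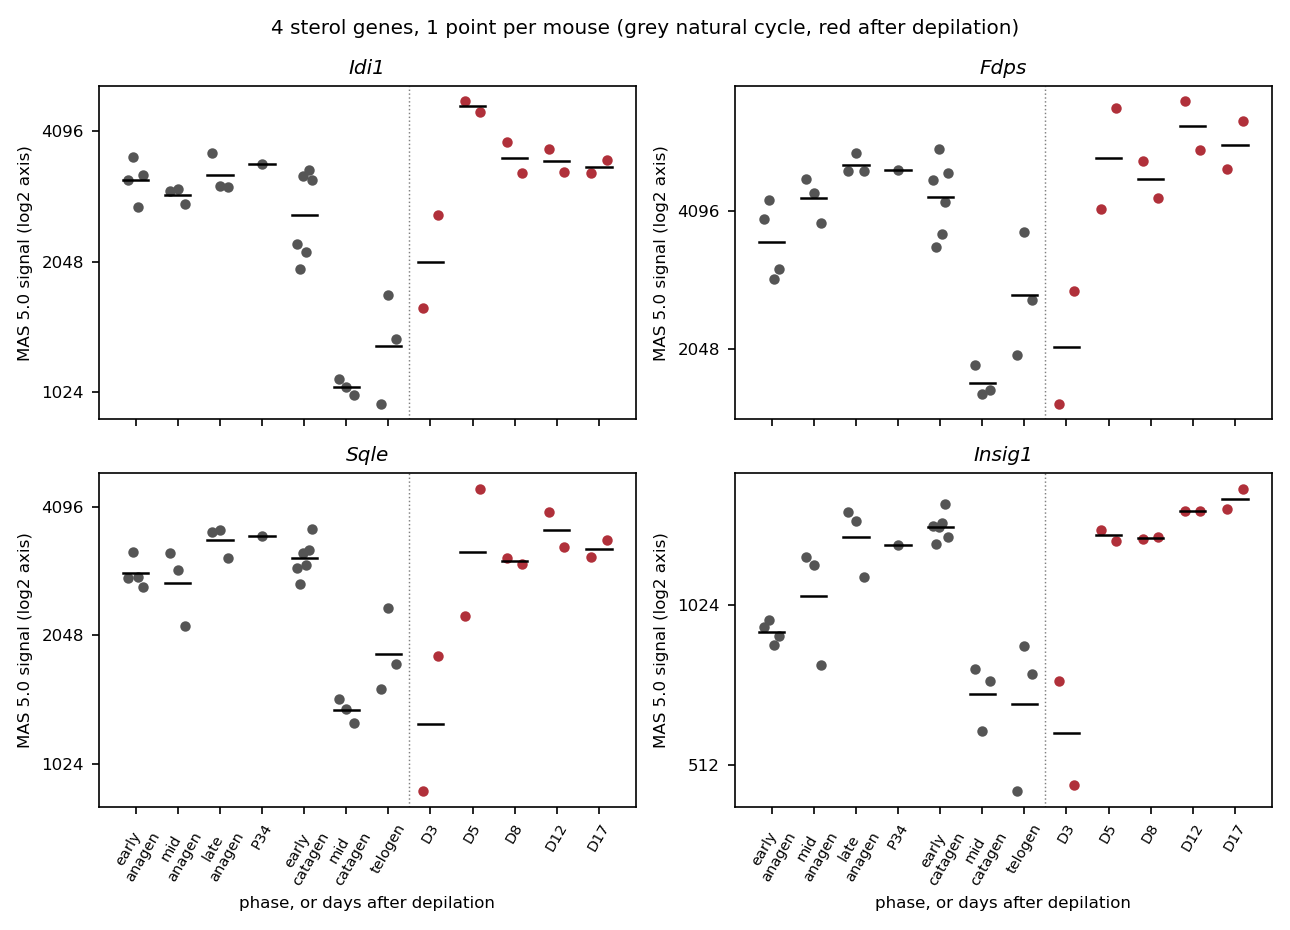
MAS 5.0 signal (log2 axis) of Idi1, Fdps, Sqle and Insig1 in each phase of the natural cycle (grey) and at each day after depilation (red), with a point per mouse and a line at the mean of the log2 values. The 3 mid catagen mice lie under all early catagen mice in each gene, and the 3 telogen mice are spread more widely than they are.

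Fatty acid genes moved both ways over the same step. Of the 14, 4 rose and 3 fell, with a list median of −0.07. Scd2, a stearoyl-CoA desaturase of skin and brain, read 3392, 2925 and 2425 at P41 against 6797, 8617 and 12130 (lowest, median, highest) in early catagen. It fell by 1.61 ± 0.20 on the log2 scale (adjusted p = 0.000635). Fads2, the Δ6 desaturase that makes long polyunsaturated fatty acids, read 231, 170 and 109 against 279, 408 and 513 (−1.24 ± 0.25, adjusted p = 0.00578). Me1 was the third to fall (−0.565 ± 0.09, adjusted p = 0.00218), and the groups of all 3 were apart.

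Scd1, the main desaturase of the sebaceous gland, rose instead, from a range of 8754 to 16545 with a median of 12417 to 19519, 18044 and 20348 (0.72 ± 0.20, adjusted p = 0.0226). Thrsp rose as well (0.88 ± 0.20, adjusted p = 0.00908), with 1682, 1702 and 1470 at P41 and 1394 as the highest early catagen value. Acacb (1.56 ± 0.43, adjusted p = 0.0204) and Elovl5 (0.56 ± 0.19, adjusted p = 0.0418) rose with overlapping groups, as in Acacb, where 616, 946 and 1288 at P41 met early catagen values from 144 to 689. The core enzymes did not pass: Fasn differed by −0.10 (adjusted p = 0.43), Acly by −0.14 (0.339), Acss2 by −0.09 (0.556) and Acaca by −0.38 (0.0537). Srebf1 differed by −0.04 (0.784).

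The 18 calls of this step were recomputed with each of the 9 arrays left out, which gave 14 to 20 calls, fewest without P41 replicate 3. Every such fit called 14 of them, namely all 11 sterol genes but Fdft1 (adjusted p = 0.0537 without P41 replicate 3), and Scd2, Fads2, Me1 and Thrsp. Scd1 missed the threshold without any of the P41 arrays (adjusted p from 0.0557 to 0.0776), Acacb without P41 replicate 2 or 3 (0.0694 to 0.0885) and Elovl5 without 7 of the 9. Without P39 replicate 2 the count was 17, of which 14 fell and 3 rose. With P37 alone as early catagen, chosen after seeing the data, 11 fell and 0 rose. Of the 18 members 13 had further probe sets, 19 in all, and 19 of 19 had the same sign, 14 of them past the test. The other Lss probe set differed by −0.61 (adjusted p = 0.0195), the other Me1 probe set by −0.08 (0.619), and those of Sc5d by −0.64 (0.0372) and −0.09 (0.563).

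Markers of other cell types moved over the same step, and their part in these results was not tested. All 8 markers of dividing cells fell (Mki67, −1.97), and the list level, the mean over its genes of log2 signal minus the mean of each gene over all arrays, ranged from −2.29 to −1.25 at P41 and from −0.80 to 0.18 in early catagen. Of 8 hair shaft markers 7 fell (Krt31, −1.80), with list levels from 0.68 to 1.24 at P41 and from 2.13 to 2.30 in early catagen. Adipocyte markers rose in 6 of 13 (Adipoq, 1.09), with levels from 0.07 to 0.24 against −0.69 to −0.18, and sebaceous gland markers rose in 5 of 9 and fell in 1 (levels from −0.14 to 0.26 against −1.16 to −0.04, or −0.74 to −0.04 without P39 replicate 2). Cornified epidermis markers fell in 1 of 10, with levels from 0.10 to 0.38 against −1.89 to 0.16, or −0.25 to 0.16 without that array. Muscle markers rose in 7 of 8 and leukocyte markers in 5 of 8 (Ptprc, 1.38), whereas 0 of the 6 basal keratinocyte and dermal fibroblast markers passed, with 1 of 6 at an unadjusted p under 0.05, where 46.3% of all probe sets were (Krt5 differed by 0.09). The T cell marker Cd3e and Plin5 of the sebaceous list lay under the floor on 3 of the 9 arrays each.

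**Figure D3:**
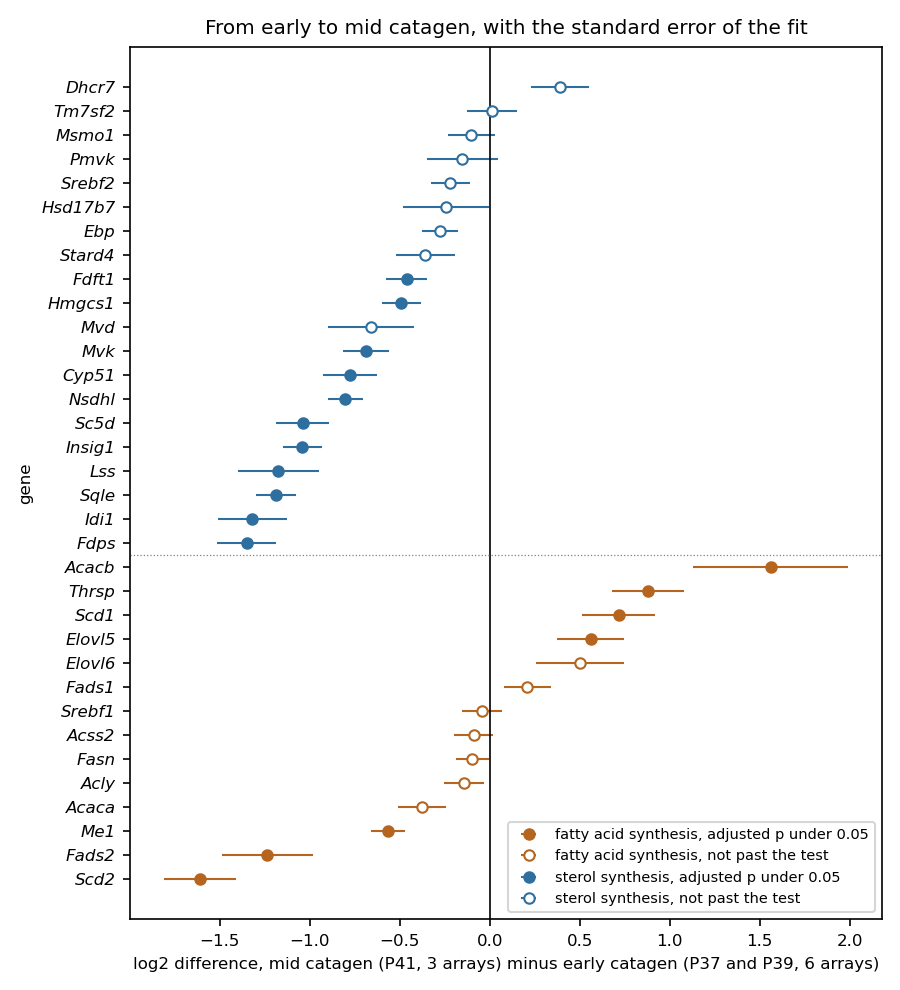
Log2 difference between mid catagen (P41, n = 3) and early catagen (P37 and P39, n = 6) for each of the 34 genes, with the standard error as a bar and filled points for those past an adjusted p of 0.05. The filled sterol genes all lie to the left of 0, from −1.35 for Fdps to −0.46 for Fdft1, and the filled fatty acid genes lie on both sides, from −1.61 for Scd2 to 1.56 for Acacb.

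Scd1 and Scd2, which catalyse the same reaction, are set side by side as a description, since the pair was chosen with these values known. The change of Scd2 minus the change of Scd1 was −2.33 on the log2 scale from early to mid catagen, 1.91 for early anagen against telogen and −2.47 for telogen against late anagen. The telogen mice enter both of the latter.

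**Figure D4:**
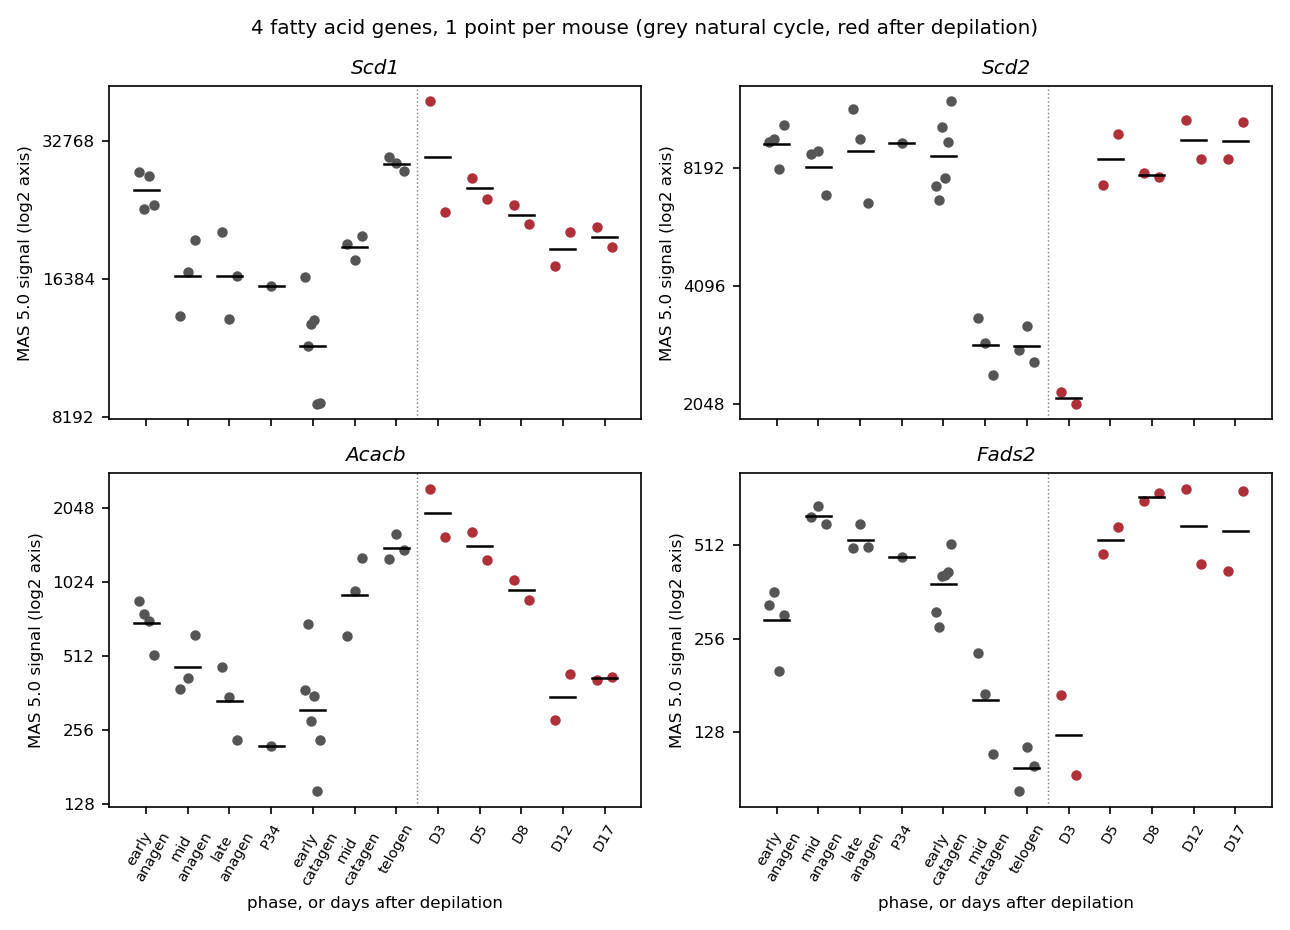
MAS 5.0 signal (log2 axis) of Scd1, Scd2, Acacb and Fads2 in each phase of the natural cycle (grey) and at each day after depilation (red), with a point per mouse and a line at the mean of the log2 values. Scd2 and Fads2 are low in mid catagen, telogen and D3, and Acacb is high in telogen, D3 and D5.

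From mid catagen to telogen (P44 against P41) the list medians were 0.48 for fatty acid genes and 0.30 for sterol genes, against 0.09 for all genes. Of the fatty acid genes 3 rose and 0 fell, where 2% of all probe sets rose and 3.88% fell. Acss2 read 1097, 974 and 852 in telogen against 595, 654 and 598 (0.66, adjusted p = 0.0456), Me1 rose by 0.64 (0.037) and Scd1 by 0.60 (0.0338), from 18044 to 20348 at P41 to 28248 to 30176 at P44. None of the 3 was called once any 1 of the 6 arrays was left out, with adjusted p from 0.0619 to 0.137. On their other probe sets the differences were 0.45 for Acss2 (adjusted p = 0.0884), 0.87 for Me1 (0.0305) and 0.36 for Scd1 (0.419). In the limma fit 0 of 20 sterol genes passed, with 5 at an unadjusted p under 0.05, where 25.2% of all probe sets were. Mvd came closest (0.72 ± 0.18, adjusted p = 0.0707, groups apart), then Pmvk (0.59, 0.0901), and Fdps differed by 0.64 (0.161). The sterol genes of the 3 telogen mice were spread, with list levels of −0.64 in replicate 1, 0.01 in replicate 2 and −0.25 in replicate 3, and for Idi1 with signals of 962, 1716 and 1359. All 8 hair shaft markers fell over this step, with list levels from −4.86 to −3.40 in telogen against 0.68 to 1.24 at P41. Muscle markers rose in 4 of 8 (1.07 to 1.21 against 0.28 to 0.56) and leukocyte markers in 2 of 8 (1.33 to 1.81 against 0.21 to 1.19). Adipocyte markers rose in 1 of 13, sebaceous gland markers in 1 of 9, and cornified epidermis markers fell in 1 of 10, with levels from 0.39 to 0.75 against 0.10 to 0.38. Of the dividing cell markers 0 of 8 passed in limma, with 0 at an unadjusted p under 0.05. The part of these markers in the result was not tested.

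Telogen against late anagen (P44 against P29), resting against fully growing skin, gave 14 calls. Fatty acid genes rose in 5 and fell in 2 (list median 0.34), and sterol genes rose in 1 and fell in 6 (−0.37), where 23% of all probe sets rose and 21.6% fell. Fads2 read 82.8, 115 and 100 in telogen against 499, 599 and 504 in late anagen, the largest difference of any member in this comparison (−2.44 ± 0.17, adjusted p = 0.000185). Scd2 read 2814, 3229 and 2624 against 11555, 9721 and 6654 (−1.66 ± 0.22, adjusted p = 0.00161). Acacb went the other way, with 1269, 1606 and 1385 against 463, 349 and 233 (2.08 ± 0.26, adjusted p = 0.00121). Scd1 (0.81), Elovl5 (0.84), Elovl6 (0.79) and Srebf1 (0.54) rose with adjusted p between 0.0111 and 0.0488.

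Among the sterol genes Idi1 fell most in this comparison (−1.31, adjusted p = 0.00428), followed by Insig1 (−1.04, 0.0174), Fdps (−0.95, 0.0156), Sqle (−0.89, 0.00964), Sc5d (−0.82, 0.00212) and Nsdhl (−0.80, 0.00395). Dhcr7 rose (0.72, adjusted p = 0.0086), with 1899, 2455 and 2204 against 1315, 1444 and 1212. Idi1, Sqle, Sc5d, Nsdhl, Dhcr7, Fads2, Scd2, Acacb and Scd1 were called whichever of the 6 arrays was left out, and the count was lowest, at 9, without P29 replicate 2. Of the called members 7 had 11 further probe sets, of which 9 had the same sign and 5 passed as well. Those of Elovl6 differed by 0.09 (adjusted p = 0.858) and −0.35 (0.39), that of Scd1 by 0.15 (0.752), that of Idi1 by −1.01 (0.0501) and those of Sc5d by −0.47 (0.0337) and 0.005 (0.984). Adipocyte markers rose in 5 of 13, sebaceous gland markers in 6 of 9, cornified epidermis markers in 7 of 10 (2 fell), and muscle and leukocyte markers in 8 of 8 each. All 8 markers of dividing cells and all 8 hair shaft markers fell. The part of these markers in the result was not tested.

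Early anagen (P23 and P25) was also set against telogen (P44). The telogen mice were the older ones, from the end of this cycle and not from the rest before it. For this comparison, here and below, rose and fell mean higher and lower in early anagen. Of the members 4 fatty acid genes rose and 1 fell, and 3 sterol genes rose and 0 fell, where 13.5% of all probe sets rose and 13.2% fell. The list medians were 0.55 and 0.33, against −0.02 for all genes. This comparison shares the telogen mice with the 2 before it. Scd2 rose from 2814, 3229 and 2624 to 9528, 9718, 8158 and 10518 (1.71 ± 0.13, adjusted p = 0.000495). Fads2 rose to 329, 362, 202 and 306 (1.57 ± 0.22, adjusted p = 0.00347), and its Δ5 partner Fads1 rose by 0.62 ± 0.14 (0.0154). Fasn rose from 7074, 4556 and 4569 to 13354, 8507, 8275 and 8119 (0.82 ± 0.24, adjusted p = 0.0418), without overlap.

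Acacb fell by 1.02 ± 0.19 (adjusted p = 0.00917) in the same comparison. Of the sterol genes Idi1 rose most (1.27 ± 0.21, adjusted p = 0.00545), from 962, 1716 and 1359 to 3166, 3566, 2744 and 3240, followed by Sqle (0.63 ± 0.17, 0.0312) and Nsdhl (0.56 ± 0.13, 0.0205). Scd2, Fads2, Acacb and Idi1 kept their calls with any of the 7 arrays left out. Fasn, Fads1, Sqle and Nsdhl each lost theirs without some arrays, and the count fell from 8 to 4 without P44 replicate 3 and to 5 without P23 replicate 1 or 2. Of 6 further probe sets of called members 5 had the same sign and 2 passed. The other Fads1 probe set differed by −0.66 (adjusted p = 0.083), and those of Fads2 by 0.505 (0.275) and 1.21 (0.127). All 8 markers of dividing cells rose (Mki67, 3.28), while 9 of 10 cornified epidermis, 6 of 8 muscle, 5 of 8 leukocyte and 3 of 13 adipocyte markers fell. Their part in the result was not tested.

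From early to mid anagen (P27) 4 of the 14 fatty acid genes fell and 1 rose, and 1 sterol gene fell, where 9.27% of all probe sets fell and 10.4% rose. The list medians were −0.60 and −0.10, against −0.10 for all genes. Fads2 rose from between 202 and 362 to 629, 679 and 598 (1.12 ± 0.21, adjusted p = 0.0133). Fasn fell to 4017, 5045 and 6828 (−0.85 ± 0.24, adjusted p = 0.0465), Scd1 by 0.62 ± 0.16 (0.0345), Elovl6 by 0.60 ± 0.17 (0.0421) and Srebf1 by 0.60 ± 0.16 (0.0361). Dhcr7 was the sterol gene (−0.57 ± 0.12, adjusted p = 0.0175). For each of the 6 the groups were apart, as they were for 10 fatty acid and 5 sterol genes in all and for 35.2% of all probe sets. No member was called once P27 replicate 1 or P27 replicate 2 was left out, and the count was 1 without P23 replicate 1, 2 without P23 replicate 2, 3 without P25 replicate 1 and 8 without P27 replicate 3. The other probe sets of Elovl6 differed by −0.235 (adjusted p = 0.228) and −0.29 (0.307), and that of Scd1 by −0.13 (0.874). Hair shaft markers rose in 8 of 8 over this step, with list levels from −0.36 to 1.94 against −4.735 to −1.19. Leukocyte markers fell in 3 of 8 (−0.89 to −0.37 against 0.09 to 1.02), muscle markers in 4 of 8 and cornified epidermis markers in 4 of 10, where 1 rose (−0.47 to −0.365 against −0.29 to −0.19). Adipocyte markers fell in 1 of 13 and sebaceous gland markers in 2 of 9, where 1 rose. Of the dividing cell markers 0 of 8 passed in limma and 5 had an unadjusted p under 0.05, with levels from 0.76 to 0.90 against 0.95 to 1.30. Their part in the result was not tested.

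The next steps of the natural cycle gave no calls in limma. For late against mid anagen (P29 against P27) 0% of all probe sets passed in either direction, and 4 fatty acid genes and 1 sterol gene had an unadjusted p under 0.05, as did 19.7% of all probe sets. Elovl6 differed most (−0.75 ± 0.23, adjusted p = 0.186), with 4897, 4146 and 2765 against 5665, 6625 and 7042, and of the sterol genes Sc5d (0.39 ± 0.16, adjusted p = 0.245). The methods' t-test also called 0 members here. For early catagen against late anagen 0% of probe sets passed again, with 4 fatty acid and 2 sterol genes at an unadjusted p under 0.05, where 13.3% of all probe sets were. Thrsp differed by −0.92 ± 0.26 (adjusted p = 0.231) and Idi1 by −0.31 (0.523). Without P39 replicate 2 there were 0 calls and 3 and 1 genes at an unadjusted p under 0.05, with Thrsp at −0.88 (0.228) and Idi1 at −0.37 (0.395). With all arrays the methods' t-test called 1 member at its own threshold and 0 after Benjamini-Hochberg adjustment.

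The levels of the 2 lists are given by phase as the level of the fatty acid list minus that of the sterol list, on the log2 scale. Each gene was centred on its mean over all arrays, so this value averages 0 over the arrays and only its size in one phase against another is read. It was 0.42 in early anagen (0.20 to 0.76 over the mice), −0.01 in mid anagen (−0.35 to 0.40), −0.29 in late anagen (−0.42 to −0.09), −0.385 in early catagen (−0.61 to −0.18), 0.23 in mid catagen (0.14 to 0.29) and 0.30 in telogen (−0.03 to 0.78). The telogen value was 0.06 without P44 replicate 1, and the early catagen value −0.34 without P39 replicate 2. In mid catagen the sterol list stood between −0.63 and −0.58 in the 3 mice, below all 6 early catagen mice (−0.20 to 0.15). The fatty acid list stood between −0.44 and −0.34 at P41, inside the early catagen range of −0.57 to −0.32. P34, the second day of late anagen, read −0.22 for fatty acid and 0.11 for sterol genes.

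**Figure D5:**
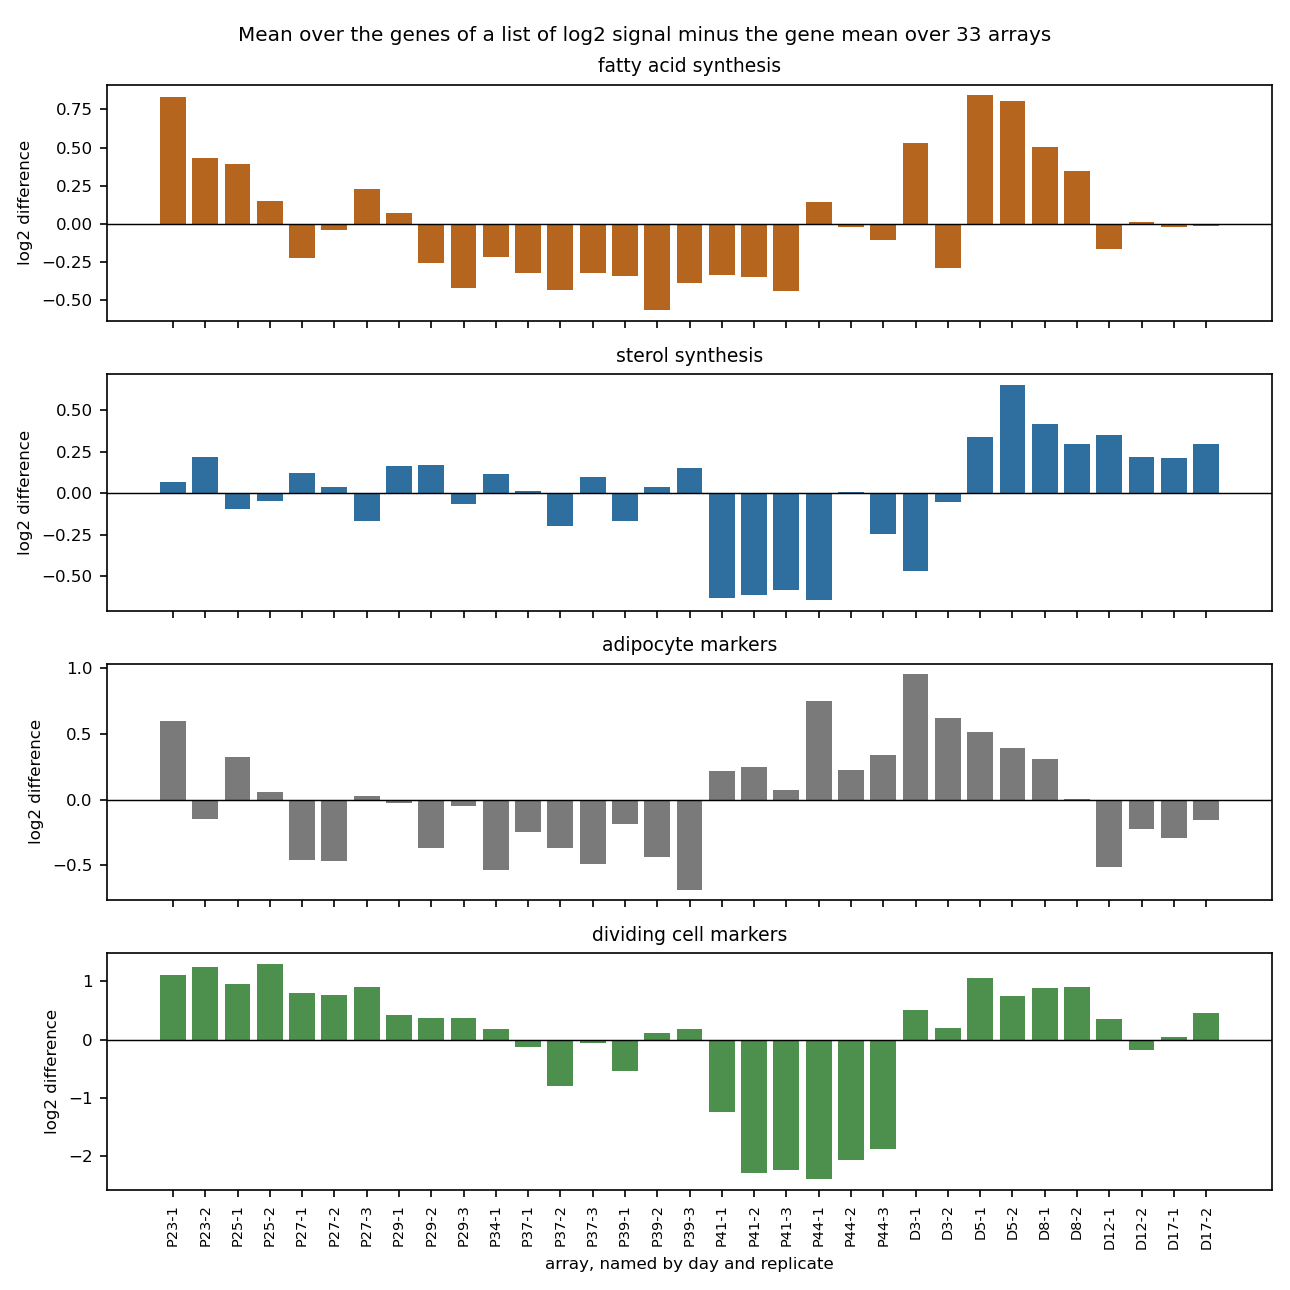
Level of the 14 fatty acid genes, the 20 sterol genes and the marker lists of adipocytes and dividing cells on each of the 33 arrays (bars from 0, log2, mean over the genes of a list relative to the mean of each gene over all arrays), in order of day. The 3 sterol bars of P41 lie between −0.63 and −0.58, below those of P37 and P39, and both synthesis lists have their highest group mean at D5.

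After depilation the F test over 5 time points called 3 fatty acid genes and 1 sterol gene, where 10.2% of all probe sets passed. They were Scd2 (adjusted p = 0.00429), Acacb (0.00803), Fads2 (0.0285) and Insig1 (0.0213). The count was 6 without D3 replicate 1 and 10 without D3 replicate 2. D5 was the most frequent highest day in both lists, with 9 of 14 fatty acid genes (64.3%) and 9 of 20 sterol genes (45%), against 19.4% of all genes. Of the sterol genes 15 (75%) were lowest at D3 and of the fatty acid genes 4 (28.6%), against 33.6% of all genes. Without D3 replicate 1 these were 12 sterol and 8 fatty acid genes, and without D3 replicate 2 they were 18 and 4, while the fatty acid genes highest at D5 numbered 10 and 5. The D3 mice differed in the fatty acid genes. Fasn read 13923 in replicate 1 and 3267 in replicate 2, Thrsp 8399 and 2093, and Acss2 1958 and 840. For the list as a whole the level was 0.53 and −0.29, whereas Scd2 (2197 and 2045) was alike in both.

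From D3 to D5 2 fatty acid and 4 sterol genes rose and 0 fell, where 1.95% of all probe sets rose and 0.715% fell. The list medians were 0.69 and 0.74, against 0.02 for all genes. Without D3 replicate 1 they were 1.03 and 0.49, and without D3 replicate 2 they were 0.03 and 0.91. Scd2 rose to 7415 and 10028 (2.02 ± 0.21, adjusted p = 0.00572), and Fads2 rose from 169 and 93.7 to 479 and 583 (2.07 ± 0.40, 0.044). Lss rose from 488 and 659 to 1385 and 1286 (1.235 ± 0.22, 0.0351), Insig1 from 736 and 471 to 1415 and 1348 (1.23 ± 0.21, 0.033), Idi1 from 1604 and 2620 to 4804 and 4539 (1.19 ± 0.24, 0.0477) and Msmo1 from 2321 and 3832 to 7763 and 6319 (1.23 ± 0.25, 0.0475). The D3 and D5 values of these 6 genes did not overlap, nor did those of 6 fatty acid and 15 sterol genes in all, and the same held for 47.2% of all probe sets. The other Lss probe set differed by 0.515 (adjusted p = 0.253), that of Msmo1 by −0.41 (0.403) and that of Idi1 by 1.09 (0.0922), so their calls rest on the chosen probe set.

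Scd2 alone was called with any of the 10 depilation arrays left out. The count was 4 without D3 replicate 1, 5 without D3 replicate 2, 2 without either D12 array and 1 without any of the other 6, and the methods' t-test called 0. Hair shaft markers rose in 2 of 8, and adipocyte markers fell in 2 of 13 and sebaceous gland markers in 1 of 9 over this step. List levels of dividing cell markers were 1.06 and 0.75 at D5 against 0.50 and 0.20 at D3. The D5 mice lay far apart in the levels of hair shaft (−3.89 and −0.65), cornified epidermis (−0.36 and 0.83) and muscle markers (1.08 and 0.14). The part of all these markers in the result was not tested.

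Later steps after depilation gave no calls among members. For D8 and D12 against D5, where 0.43% of all probe sets rose and 0.115% fell, 6 fatty acid and 5 sterol genes had an unadjusted p under 0.05, as did 17.8% of all probe sets, and the list medians were −0.67 and −0.11. Thrsp read 3521, 2704, 854 and 2068 against 7688 and 9809 (−2.10 ± 0.55, adjusted p = 0.135), Acacb 1042, 869, 282 and 434 against 1636 and 1260 (−1.32, 0.075) and Fasn differed by −0.97 (0.345), all without overlap, as in 9 fatty acid and 6 sterol genes in all and 21.6% of all probe sets. Msmo1 differed most of the sterol genes (−0.55 ± 0.21, adjusted p = 0.249). The methods' t-test called 0 after adjustment and 2 at its own threshold. For D17 against D8 and D12, where 0% of probe sets passed in either direction, 0 members reached an unadjusted p under 0.05, as 3.51% of all probe sets did, with 0 called by the methods' t-test. Acacb (−0.475 ± 0.25, adjusted p = 1) and Msmo1 (−0.40 ± 0.21, adjusted p = 1) differed most in their lists.

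Depilated and natural skin were compared at phases of the same name, and these comparisons carry age and sex with them. At D3 against natural early anagen 2 fatty acid genes were higher and 4 lower, and 1 sterol gene was higher and 7 lower, where 18.5% of all probe sets were higher and 26.1% lower. Scd2 read 2197 and 2045 at D3 against 8158 to 10518 (−2.155 ± 0.22, adjusted p = 2.28e-07). Elovl5 (−1.345 ± 0.23, 6.02e-05), Fads2 (−1.22) and Fads1 (−1.19) were lower as well, while Acacb (1.49 ± 0.37, 0.00231) and Srebf1 (0.59, 0.0171) were higher. Sqle (−1.17 ± 0.25, 0.000604), Srebf2 (−0.82 ± 0.18, 0.000883) and Fdps (−0.77 ± 0.25, 0.0149) led the lower sterol genes, and Fdft1 was the higher one (0.62, 0.0013), with 3427 and 3403 against 1818 to 2668. The second Fdft1 probe set, of nearly the same mean log2 signal over the arrays (11.11 against 11.17), differed by 0.09 only (adjusted p = 0.673).

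Scd2, Elovl5, Fads1, Fdft1, Nsdhl and Srebf2 kept their calls at this phase with any of the 6 arrays left out. Without D3 replicate 1 there were 13 calls, without D3 replicate 2 there were 17. Without D3 replicate 1 the calls of Acacb (adjusted p = 0.0693), Sqle (0.0787), Fdps (0.39), Idi1, Msmo1 and Srebf1 were lost, and without D3 replicate 2 those of Fads2 (0.0794) and Insig1 (0.364). Msmo1, lower by 0.65 on its chosen probe set, was higher on another probe set of the gene, which also passed (2.48). The other probe sets of Srebf2 (−0.44, adjusted p = 0.239), Idi1 (−0.22, 0.562) and Fads1 (0.31, 0.297) did not pass. Adipocyte markers were higher in 6 of 13 (1 lower) and muscle markers in 6 of 8, while markers of dividing cells were lower in 5 of 8 and hair shaft markers in 5 of 8. Sebaceous gland markers were higher in 2 of 9 (list levels of 0.59 and 0.75 against −0.32 to 0.27) and cornified epidermis markers in 2 of 10 (0.12 and 0.68 against −0.29 to −0.19). Basal keratinocyte and dermal fibroblast markers were lower in 4 of 6 and higher in 2 (−0.49 and −0.25 against 0.12 to 0.40). Their part in the result was not tested.

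At late anagen (D8 and D12 against P29) 3 fatty acid and 4 sterol genes were higher and 0 lower, where 10.6% of all probe sets were higher and 15.9% lower. Elovl6 was higher by 1.18 ± 0.28 (adjusted p = 0.0033), with 13578, 11624, 4510 and 7984 against 4897, 4146 and 2765 and overlapping groups. Another of its probe sets was lower by 0.87 and passed too. Srebf1 (0.74 ± 0.17, 0.00284) and Fads1 (0.40 ± 0.14, 0.0407) were higher without overlap. In all, groups did not overlap in 3 fatty acid genes (2 higher and 1 lower), 5 sterol genes (all higher) and 31.7% of all probe sets. The lower one was Me1, which was not called (2739 to 3202 against 3348 to 3629). Fdft1 was higher in all 4 depilated mice (3618, 3279, 3046 and 2940 against 2150, 2269 and 1648, a difference of 0.68 ± 0.13, adjusted p = 0.000413), and Cyp51 (0.62, 0.0293), Mvd (0.62, 0.0312) and Dhcr7 (0.60, 0.0193) followed. The second probe sets of Fdft1 (0.29, adjusted p = 0.128), Mvd (0.35, 0.247) and Fads1 (0.095, 0.773) did not pass, and that of Cyp51 did (0.71, 0.00687). Elovl6, Srebf1 and Fdft1 kept their calls with any of the 7 arrays left out, and the count was 3 without P29 replicate 3 or D8 replicate 1. The fatty acid list averaged 0.42 at D8 and −0.08 at D12, against −0.20 at P29. Cornified epidermis markers were higher in 6 of 10, sebaceous gland markers in 3 of 9, and muscle and leukocyte markers in 4 of 8 each, while basal keratinocyte and dermal fibroblast markers were lower in 3 of 6. Hair shaft levels were 0.69 to 1.155 at D8 and 2.03 to 2.135 at D12, against 2.25 to 2.46 at P29. Levels of dividing cell markers were 0.88 to 0.90 at D8 and −0.17 to 0.355 at D12, against 0.37 to 0.43. Their part in the result was not tested.

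Other genes of the 2 pathways, from lists of 23 and 11 measured genes that hold transport, activation, storage and regulation, were read beside the members. At mid catagen 9 of the 23 other fatty acid genes rose and 3 fell, where 17.4% of all probe sets rose and 17.9% fell, with Lpin1, a phosphatidate phosphatase of fat storage (1.35, adjusted p = 0.000321), and Acsl4, an acyl-CoA synthetase (0.83, 0.00229), among those that rose. Of the 11 other sterol genes 1 rose and 2 fell, namely Lbr, which has sterol reductase activity (−0.87, 0.0021), and Npc1, which exports cholesterol from lysosomes (−0.33, 0.0305). In telogen against late anagen 12 of the 23 rose and 2 fell, where 23% and 21.6% of all probe sets did, with Acsl3, the acyl-CoA synthetase of lipid droplets, at −1.75 (adjusted p = 0.000372) and Hacd1, which acts in fatty acid elongation, at 1.28 (0.00141). Of the 11 sterol genes 3 rose and 4 fell there, with Lbr at −1.34 (0.000488) and the lysosomal cholesterol carrier Npc2 at 0.80 (0.00348).

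At early anagen against telogen, where 13.5% of all probe sets rose and 13.2% fell, 2 of the 23 rose and 2 fell (Hacd3, 0.47; Mid1ip1, −0.52), and 1 of the 11 rose (Lbr, 1.15) and 4 fell, among them the cholesterol exporter Abca1 (−0.94). From early to mid anagen, against 10.4% and 9.27% of all probe sets, 2 of the 23 rose and 3 fell (Acsl3, 0.84, and the triglyceride synthase Dgat2, −0.68), and 2 of the 11 rose, namely Insig2 (0.58), a relative of Insig1, and Ggps1 (0.65). From mid catagen to telogen Acsl3 (−1.32) and Insig2 (−1.10) fell, and the counts were 2 up and 1 down of 23 and 0 up and 1 down of 11, against 2% and 3.88% of all probe sets. From D3 to D5 0 of the 23 and 0 of the 11 passed in limma, with 10 and 3 at an unadjusted p under 0.05, as 20.5% of all probe sets were. At D3 against natural early anagen, where 18.5% of all probe sets were higher and 26.1% lower, 5 of the 23 were higher (Lpin1, 1.90) and 2 lower (Scd3, a further stearoyl-CoA desaturase, −2.25), and 2 of the 11 were higher and 2 lower (Lbr, −0.95). At late anagen, where 10.6% were higher and 15.9% lower, 7 of the 23 were higher after depilation (Acsl4, 0.96) and 1 lower (Acsl3, −0.57), with 1 higher and 1 lower of the 11.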

How the data were processed

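The authors measured RNA of 33 skin samples on Affymetrix 430 2.0 arrays for mouse. The deposited values are linear intensity values (MAS 5.0 signal, version not given in the sources used here) on a common scale, and the methods state that outlying samples were removed after principal component analysis. Days and replicates came from the labels and phases from the description of the series, since the label text of P41, P44 and all depilated samples names early anagen.

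Values below 34.6 (the 25th percentile over all arrays) were raised to it before log2 transformation. The 26988 of 45037 probe sets above the array median on at least 3 arrays were kept. A single symbol was given for 34945 probe sets, several for 932 and none for 9160. Moderated linear models (limma 3.58.1, R 4.3.3) were fitted to all kept probe sets, with Benjamini-Hochberg adjustment over all of them and a threshold of 0.05. Natural comparisons used only their own arrays, depilation contrasts the 10 depilation arrays, and contrasts between the cycles all 33. Values after ± are standard errors of log2 differences or, where marked, SD. The number of arrays limits the precision. The model fit of each comparison was tried on simulated data with planted differences, and the other steps were not. The methods' t-test used the same log2 values with its threshold at 0.01.

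The members, gene lists and tests were chosen with earlier results of these data known. Values are given for the 5 fatty acid and 7 sterol genes with the smallest F test p, the regulators, Scd1 and Scd2, and in each comparison at least the 3 largest called differences of each list (the largest where none was called), for other pathway genes mostly the 2 with the smallest p. Further members were named after their values were seen. Alternatives were other floors and filters, quantile normalization, median centring, a joint fit, sex as a covariate, a replicate block, the methods' t-test, other probe sets, other days for a phase and each array left out. Figures were drawn with matplotlib 3.10.9.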

Additional observations from a re-analysis of the deposited data

Results flagged for a closer look

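On its chosen probe set Fads1 moved in opposite directions from early to late anagen in the 2 cycles. The log2 difference was −0.77 in the natural cycle (P29 against P23 and P25) and 0.82 after depilation (D8 and D12 against D3). All 3 mice of P29 lay below all 4 of P23 and P25, and all 4 mice of D8 and D12 lay above both of D3. Between the cycles the chosen probe set differed by −1.19 at D3 against natural early anagen and by 0.40 at D8 and D12 against late anagen. The other Fads1 probe set differed by 0.31 and 0.095 and passed neither test, so the flag rests on the chosen one. Each mouse was measured on a single day, and the opposite movement in the cycles was not tested.

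In 4 of 102 groups of 4 to 6 arrays a single mouse stood far from the rest, where chance alone gives about 1 in 20 groups. The gap of that mouse to its nearest neighbour, as a share of the whole range of the group, was 0.906 for Fasn in early anagen (P23 replicate 1 at 13350 against 8119 to 8507), 0.834 for Srebf2 in early anagen (P25 replicate 1 at 997.5 against 1457 to 1571), 0.833 for Fads2 at D8 and D12 (D12 replicate 2 at 444.2 against 706.2 to 775.2) and 0.636 for Thrsp in early catagen (P37 replicate 3 at 1394 against 715.9 to 912.2).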

How the results depend on the processing

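Counts of members past the test were recomputed in 306 combinations of result and setting, and 245 lay within 1.5 times the count given, while 61 did not. Of 1470 recomputed changes of single members 1163 kept their direction and their call, 305 kept the direction and lost the call, and 2 reversed, both with the mean of all probe sets of a gene (Fads1 in early anagen against telogen at −0.018, Msmo1 in D3 against natural early anagen at 0.914). No called member reversed under quantile normalization or median centring, although median centring moved the median of all genes from −0.024 to 0.12 for early anagen against telogen, from −0.099 to −0.264 for mid against early anagen and from 0.029 to 0.192 for D8 and D12 against late anagen.

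Without the filter on low signals the count was 3 for mid against early anagen, 9 for telogen against late anagen, 2 over the depilation days and 1 for D5 against D3. With the stricter filter it was 6 for telogen against mid catagen and 9 over the depilation days. Quantile normalization gave 3 for mid against early anagen. The joint fit of all arrays gave 10 for mid against early anagen, 18 over the depilation days, 14 for D5 against D3 and 3 for D8 and D12 against D5. The methods' t-test after Benjamini-Hochberg adjustment gave 2 for mid against early anagen, 1 for telogen against mid catagen, 9 for telogen against late anagen, 1 over the depilation days and 0 for D5 against D3. At its own threshold it gave 3, 7 and 0 for mid against early anagen, telogen against late anagen and D5 against D3, 1 for early catagen against late anagen and 2 for D8 and D12 against D5. The mean of all probe sets gave 8 over the depilation days and 1 for D8 and D12 against D5. With P23 alone as early anagen the count against telogen was 5, with P25 alone 3, and 1 for mid anagen against P25 alone. With P37 alone as early catagen, chosen after seeing the data, mid catagen had 11. The cause of these shifts was not tested.

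Same-numbered replicates did not deviate together (171 pairs, correlation from −0.262 to 0.387, median 0.004), so the numbers do not pair the mice. With the replicate number as a block the counts were 4 for early anagen against telogen, 0 for telogen against mid catagen and 1 for D5 against D3, and within 1.5 times for the other comparisons.

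With each array left out in turn the count ranged from 28 to 31 across the natural phases, from 4 to 9 for early anagen against telogen, 0 to 8 for mid against early anagen, 14 to 20 for mid against early catagen, 0 to 0 for telogen against mid catagen, 9 to 14 for telogen against late anagen, 2 to 10 over the depilation days, 1 to 5 for D5 against D3, 0 to 1 for D8 and D12 against D5, 12 to 17 for D3 against early anagen and 3 to 5 for D8 and D12 against late anagen.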
